A study of Mus musculus with 6 samples.

Results

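The genes described here are 10 transcription factors that direct T and innate lymphoid fates: Gata3, Tcf7, Lef1, Bcl11b, Tox, Zbtb16, Nfil3, Rora, Runx3 and Runx1. They were chosen by name, and each had 1 of the 28350 probe sets of the array, so they make 10 of the 20473 gene symbols measured by probe sets with a single symbol. RNA was profiled on Affymetrix arrays from a mouse pre-pro-B cell line that lacks Ebf1 (Ebf1-/-). Cells were transduced with MigY-EBF1, which carries the B-lineage factor EBF1 (EBF1 cells, 2 arrays), with MigR-Pax5, which carries the B-lineage factor Pax5 (Pax5 cells, 2 arrays), or with the empty vector MigR1 (Control cells, 2 arrays), then sorted and harvested at 24 h. All 3 groups thus share the Ebf1 deletion, a single cell line, OP9 stromal cells as support, and medium with the cytokines IL-7, SCF (stem cell factor) and FLT3 ligand, each at 10 ng/ml. By name, the vector of EBF1 cells (MigY) differs from that of Pax5 and Control cells (MigR), and no group had an empty MigY vector. In comparisons with EBF1 cells, EBF1 and the vector that carries it therefore cannot be told apart. The labels do not say whether the 2 arrays of a group came from separate transductions, so the p-values reflect no more than the spread among these arrays, which may be technical, and in bulk RNA fewer cells of a type and less RNA per cell cannot be told apart.

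Pre-pro-B cells stand where the B, T and innate lymphoid fates part. In the thymus, Notch1 signalling turns on Tcf7 and Gata3, which in turn support Bcl11b, the factor that seals T-lineage commitment. Innate lymphoid precursors use an overlapping set (Nfil3, Tox, Tcf7, Gata3 and Zbtb16), with Rora in the type 2 branch and Runx3 in natural killer and cytotoxic T cells. EBF1 and Pax5 are known to hold such programs down as B cells commit, and Runx1 acts in both lineages.

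Promoter sequences are shown for Runx1 and Gata3, on which the results turn, and for Runx3, because its promoter shares an arrangement with one of Runx1. They come from RefSeq (GRCm38.p6), run from 250 bases before to 50 after each start, read 5′ to 3′ on the strand of the gene, and have in capitals every match to the Runx motif TGTGGT on either strand (ACCACA on the other). RefSeq promoters were matched for 8 of the 10 genes, with 14 starts in all; the 2 genes not matched were Tox and Zbtb16. The array's probe sets do not tell the distal and proximal starts of Runx1 apart. The order is the distal Runx1 promoter (chr16:92826025-92826324, minus strand), the distal Runx3 promoter (chr4:135120395-135120694, plus strand), the proximal Runx1 promoter (chr16:92697280-92697579, minus strand) and the Gata3 promoter (chr2:9878551-9878850, minus strand).
Distal Runx1: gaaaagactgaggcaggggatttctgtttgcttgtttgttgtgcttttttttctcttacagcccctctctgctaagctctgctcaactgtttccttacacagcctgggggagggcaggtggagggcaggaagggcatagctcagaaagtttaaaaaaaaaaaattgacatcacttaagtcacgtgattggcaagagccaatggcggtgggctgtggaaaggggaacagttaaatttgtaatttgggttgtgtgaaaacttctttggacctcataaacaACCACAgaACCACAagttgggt
Distal Runx3: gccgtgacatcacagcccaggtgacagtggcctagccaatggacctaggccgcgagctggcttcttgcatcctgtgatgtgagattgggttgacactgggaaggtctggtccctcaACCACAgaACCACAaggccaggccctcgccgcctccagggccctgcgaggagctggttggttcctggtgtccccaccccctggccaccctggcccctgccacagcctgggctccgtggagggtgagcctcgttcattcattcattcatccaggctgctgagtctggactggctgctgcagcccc
Proximal Runx1: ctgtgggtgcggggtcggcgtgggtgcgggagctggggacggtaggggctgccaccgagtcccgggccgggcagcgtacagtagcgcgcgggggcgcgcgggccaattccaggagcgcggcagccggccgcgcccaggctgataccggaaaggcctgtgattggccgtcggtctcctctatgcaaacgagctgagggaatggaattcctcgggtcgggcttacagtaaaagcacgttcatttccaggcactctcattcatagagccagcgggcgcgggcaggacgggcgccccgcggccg
Gata3: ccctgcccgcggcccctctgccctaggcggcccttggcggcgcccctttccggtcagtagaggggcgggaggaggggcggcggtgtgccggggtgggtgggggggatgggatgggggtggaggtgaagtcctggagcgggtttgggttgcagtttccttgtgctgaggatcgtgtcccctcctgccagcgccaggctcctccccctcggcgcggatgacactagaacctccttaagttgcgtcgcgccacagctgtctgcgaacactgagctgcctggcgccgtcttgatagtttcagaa

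The distal Runx1 promoter held 2 Runx matches, at positions 29 and 37 counted from the start, and the distal Runx3 promoter held 2, at positions -134 and -126. In both, 2 copies of ACCACA stand 2 bases apart, an arrangement picked out after the sequences were read, which was present in 7 of 32851 RefSeq promoters of this length (0.0213%) on either strand. The single Runx motif was far more common, at 16.8% of promoters. The other motifs searched were the EBF1 core CCCNNGGG (13.7% of promoters), the full palindromic EBF1 motif, which is that core with a T before it and an A after it (0.904%, all counted in the core too), the Pax5 core GCGTGAC (2.09%) and the GATA motif AGATAA (11.2%). Among the 14 promoters the EBF1 core had 1 match, in Bcl11b, and the GATA motif 1, in Lef1, while the full EBF1 motif and the Pax5 core had 0. These are matches of letters in a short window, and binding was not measured.

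The Pax5 probe set and the brighter of the Ebf1 probe sets were highest on the arrays of cells given that gene. The Pax5 probe set read 11.42 and 11.33 in Pax5 cells and 6.01 and 6.17 in EBF1 cells, against 4.93 and 5.10 in Control cells (log2 values, here and below). Of the Ebf1 probe sets, one (10375360) read 9.88 and 9.96 in EBF1 cells and 8.92 and 8.87 in Pax5 cells, against 8.87 and 8.87 in Control cells, and the other (10375358) read 4.37 and 4.25 in EBF1 cells and 6.02 and 6.04 in Pax5 cells, against 4.70 and 4.75 in Control cells. Where these lie relative to the deleted part of Ebf1 was not examined. All 10 pre-pro-B and early lymphoid markers lay above the level used as a floor (the array's 30th percentile, 2.92 to 3.04), with medians of 7.17 and 7.32 in EBF1 cells and 7.89 and 7.93 in Pax5 cells, against 8.10 and 8.10 in Control cells. Of these, 4 were called lower in EBF1 than in Control cells (Kit -0.99, Cd27 -1.04, Dntt -1.75 and Il7r -0.39). In Pax5 cells 4 were called lower than in Control cells (Dntt -1.27, Il7r -0.79, Rag1 -0.63 and Flt3 -0.50), and 0 were higher in either group. Over all genes tested, 2.46% were called lower for EBF1 against Control and 2.06% for Pax5 against Control. Of 4 T-cell receptor subunits, Cd3g stayed below the floor, Cd3d read 2.52 to 3.11, Cd3e 3.65 to 3.84 and Cd247 4.35 to 4.66. Of the 18 T-lineage genes that include them, 16 were above the floor. Array medians of all 18 were 4.01 and 3.87 in EBF1 cells, 3.87 and 3.94 in Pax5 cells and 3.93 and 4.03 in Control cells. The highest means over all arrays in that list were those of Lck (6.85), Lat (6.78) and Zap70 (6.56). Of 10 stromal markers 9 were above the floor. Array medians of the 10 were 4.38 and 4.55 in EBF1 cells, 4.19 and 4.40 in Pax5 cells and 4.44 and 4.38 in Control cells. Bgn (7.66 to 8.39) and Sparc (7.10 to 8.02) read highest, and no other stromal marker read above 6.04 on any array. Among the stromal markers 1 was called, Bgn, higher in EBF1 than in Control cells (0.62, limma adjusted p = 0.0175). Of 10 myeloid markers 7 were above the floor. Array medians of the 10 were 3.74 and 3.79 in EBF1 cells, 3.91 and 3.59 in Pax5 cells and 3.49 and 3.51 in Control cells. Against Control, the called myeloid markers were all lower: Itgam (-1.06, adjusted p = 0.0186) and Adgre1 (-0.72, adjusted p = 0.0106) in EBF1 cells and Mpo (-1.03, adjusted p = 0.00441) in Pax5 cells. For EBF1 against Pax5, 3 early lymphoid markers were called higher (Rag1 1.00, Ly6a 0.79, Il7r 0.39) and 2 lower (Kit -1.15, Rag2 -0.65). In that comparison 1 myeloid marker was called higher (Mpo 0.68) and 2 lower (Itgam -1.09, Adgre1 -0.89). Over all genes tested, 8.71% were called higher and 5.2% lower there. These markers moved in the same comparisons as Gata3, Runx1 and Tox, and their part in those results was not tested. The 2 Pax5 arrays differed most (SD of their difference over the genes tested 0.263, against 0.161 between EBF1 arrays and 0.152 between Control arrays).

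In 4 of the 28350 probe sets the group means in the authors' deposited table differed by more than 0.001 from the means of the array values beside them, and 2 of those 4 belong to Bcl11b and Lef1. For Bcl11b the deposited mean was higher by 0.10 in EBF1 cells and by 0.05 in Pax5 cells, and for Lef1 it was higher by 0.05 in Pax5 cells. The other 2 were Cd79a and Pde2a. The deposited F statistic differed by more than 1% from that of the array values in 12 probe sets, these 4 among them. The results of Bcl11b and Lef1 are therefore given both ways, with array values as deposited and with the 1 array per group changed whose change gives back the authors' mean and F statistic. The cause was not tested.

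**Figure D1:**
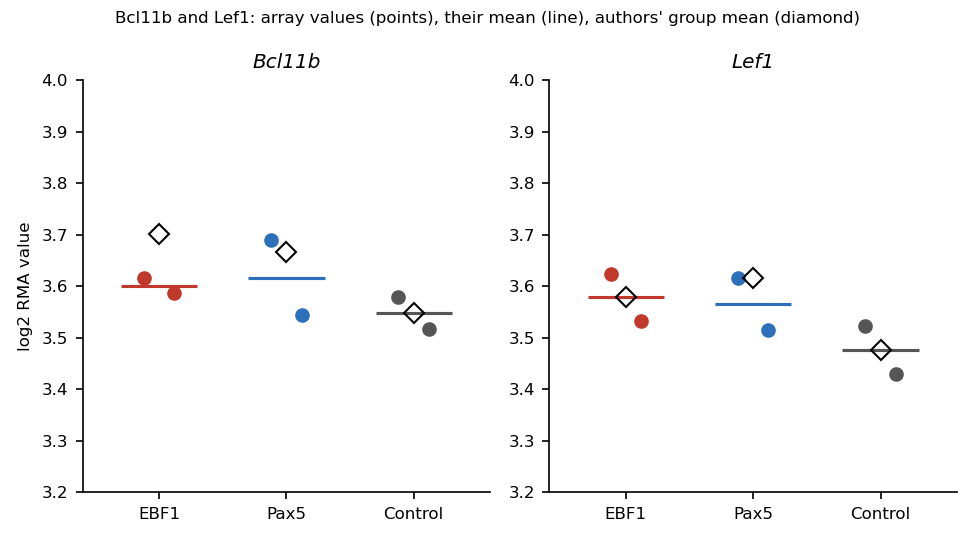
Log2 RMA values of Bcl11b and Lef1 on each array (points), the mean of the points (line) and the authors' deposited group mean (diamond), for EBF1, Pax5 and Control cells from left to right. The diamond lies off the line for Bcl11b in EBF1 cells (by 0.10) and Pax5 cells (by 0.05) and for Lef1 in Pax5 cells (by 0.05), and on it elsewhere.

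Of the 9 genes that passed the filter on low values, limma called 3 in any comparison: Gata3, Runx1 and Tox. In EBF1 cells against Control cells 0 were higher and 2 lower (Gata3 and Runx1), where 5.6% of all 15295 genes tested were called (3.14% higher and 2.46% lower). In Pax5 cells against Control cells 0 were higher and 1 lower (Tox), against 4.22% of all genes (2.16% higher and 2.06% lower). Between EBF1 and Pax5 cells 1 was higher in EBF1 cells (Tox) and 2 were lower (Gata3 and Runx1), against 13.9% of all genes (8.71% higher and 5.2% lower). The median absolute log2 difference of the 9 was 0.18 for EBF1 against Control (0.12 over all genes), 0.14 for Pax5 against Control (0.13) and 0.15 for EBF1 against Pax5 (0.16). The 2 arrays of each group did not overlap for 8 of 9 genes in EBF1 against Control, where 56.0% of all genes also did not. That count was 7 of 9 in Pax5 against Control (51.4% of all genes) and 5 of 9 in EBF1 against Pax5 (56.4%).

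**Figure D2:**
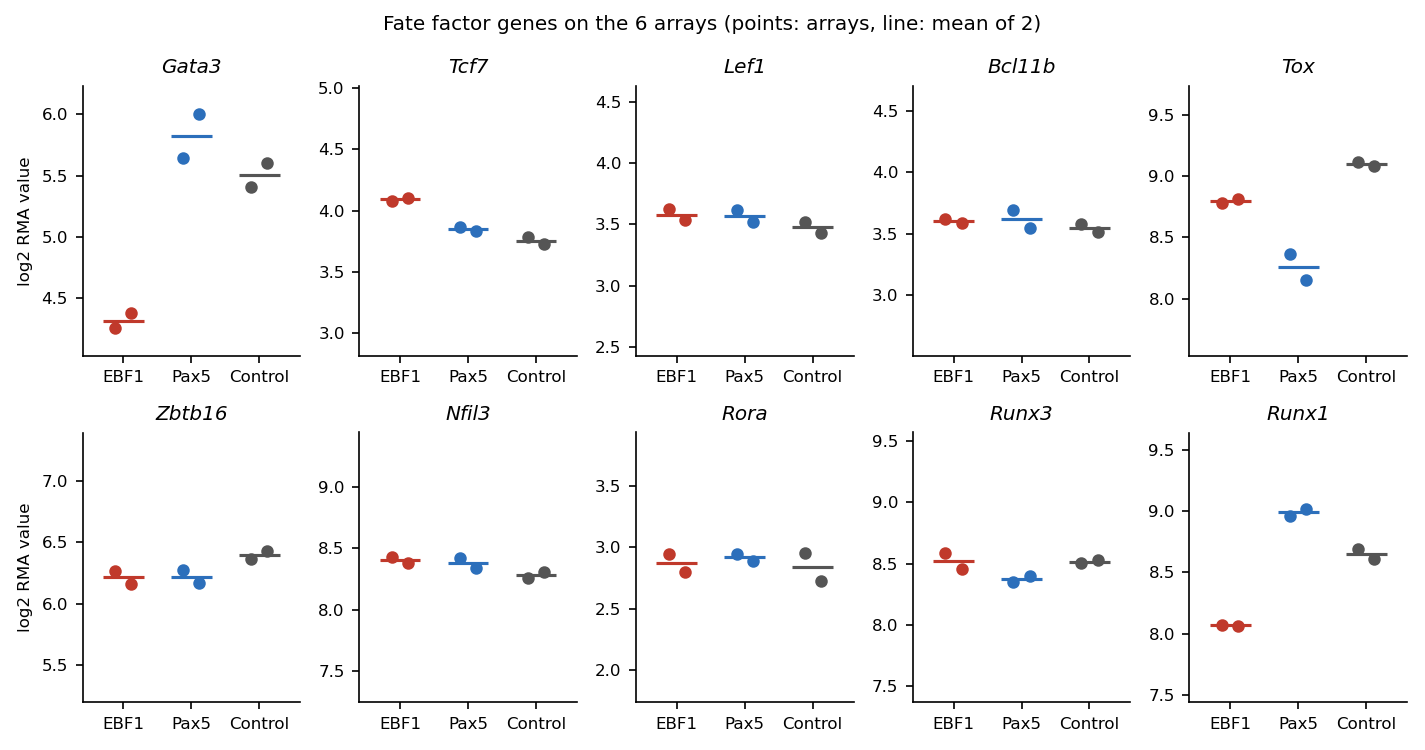
Log2 RMA value of each factor on each array, EBF1 cells left, Pax5 cells in the middle and Control cells right, with a bar at each group mean. Gata3 and Runx1 are lowest on both EBF1 arrays, and Tox is lowest on both Pax5 arrays.

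Gata3, a zinc-finger factor needed for T-cell specification and for type 2 innate lymphoid cells, fell with EBF1. It read 4.26 and 4.38 in EBF1 cells and 5.65 and 6.0 in Pax5 cells, against 5.41 and 5.61 in Control cells. Both EBF1 arrays lay more than 1 log2 unit below every other array, and the Pax5 arrays lay just above the Control arrays without overlap. The log2 difference was -1.19 for EBF1 against Control (SE 0.140, 95% interval -1.53 to -0.85, adjusted p = 0.00885), a 2.28-fold lower level. For EBF1 against Pax5 it was -1.51 (SE 0.140, -1.85 to -1.17, adjusted p = 0.00216), or 2.84-fold lower in EBF1 cells. For Pax5 against Control it was 0.32 (-0.02 to 0.66, adjusted p = 0.265), which did not pass. The EBF1 against Pax5 call held with any array left out. The EBF1 against Control call ended without either EBF1 array (adjusted p = 0.0989 and 0.0802) or either Control array (0.0667 and 0.0936), at differences of -1.29 to -1.09, and the Pax5 against Control difference was called without the first Pax5 array (0.50, adjusted p = 0.0467).

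Runx1, the runt-domain factor that acts in blood progenitors and in early T and B cells, was lower in EBF1 cells than in either other group. It read 8.07 and 8.06 in EBF1 cells and 8.96 and 9.02 in Pax5 cells, against 8.69 and 8.60 in Control cells. The 3 groups did not overlap, with Pax5 cells highest, Control cells between and EBF1 cells lowest. The log2 difference was -0.58 for EBF1 against Control (SE 0.0765, -0.77 to -0.39, adjusted p = 0.0124) and -0.92 for EBF1 against Pax5 (SE 0.0765, -1.11 to -0.74, adjusted p = 0.00154). Pax5 against Control was 0.34 (0.16 to 0.53, adjusted p = 0.0702), which did not pass. Between EBF1 and Pax5 cells the call held with any array left out. It is also the 1 call among the 10 genes in the authors' deposited table, with a step-up p of 0.0360 and a ratio of 1.90 for Pax5 against EBF1. The EBF1 against Control call ended without any of the 4 arrays compared (adjusted p from 0.104 to 0.136), and the Pax5 against Control difference passed without the first Pax5 array (0.37, adjusted p = 0.0429).

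Tox, an HMG-box factor of CD4 T-cell and innate lymphoid development, fell with Pax5. It read 8.78 and 8.81 in EBF1 cells and 8.37 and 8.15 in Pax5 cells, against 9.11 and 9.08 in Control cells. The groups did not overlap, with Control cells highest, EBF1 cells between and Pax5 cells lowest. The log2 difference for Pax5 against Control was -0.84 (SE 0.0937, -1.07 to -0.61, adjusted p = 0.00864), a 1.79-fold lower level. EBF1 against Control was -0.30 (-0.53 to -0.08, adjusted p = 0.139), which did not pass, and EBF1 against Pax5 was 0.54 (SE 0.0937, 0.31 to 0.76, adjusted p = 0.0163). The Pax5 against Control call ended without either Control array (adjusted p = 0.103 and 0.0981). The EBF1 against Pax5 call ended without either EBF1 array (0.106 and 0.112) and, without either Control array, at an adjusted p of 0.0519 both times. The EBF1 against Control difference passed without either Pax5 array (adjusted p = 0.0486) and with trend and robust variance settings in limma (0.0166).

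**Figure D3:**
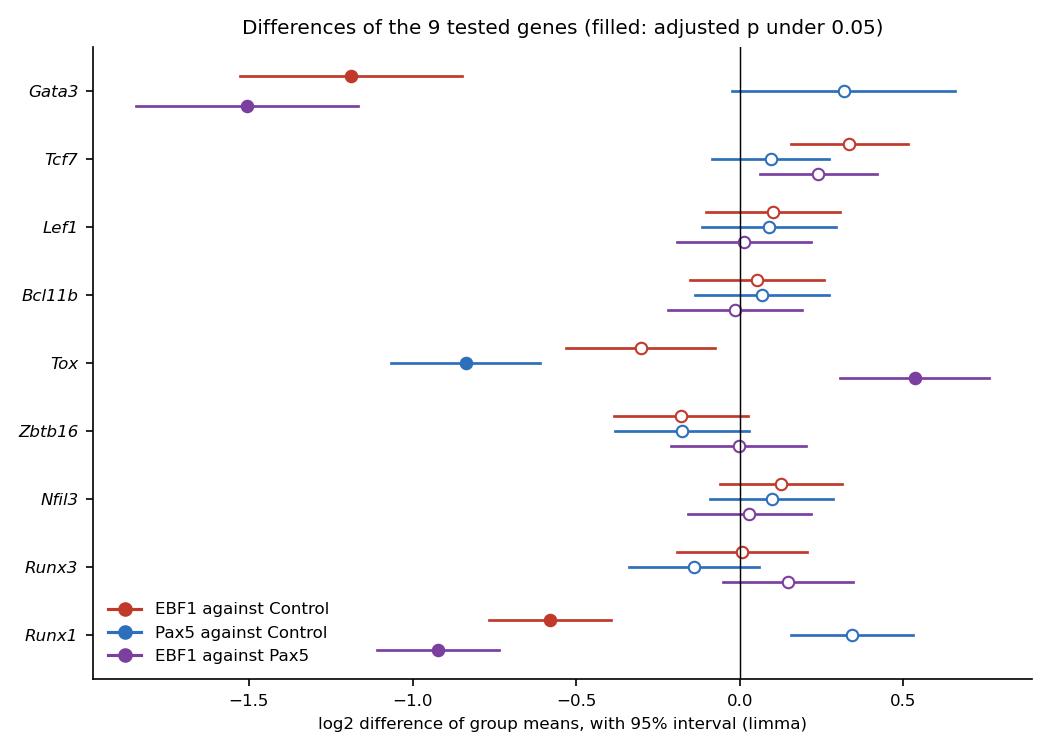
Log2 difference of the 9 tested factors in each comparison, with 95% intervals from limma and filled points for an adjusted p under 0.05. The intervals of Gata3 and Runx1 lie below 0 for EBF1 against Control and EBF1 against Pax5, and that of Tox lies below 0 for Pax5 against Control.

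**Figure D4:**
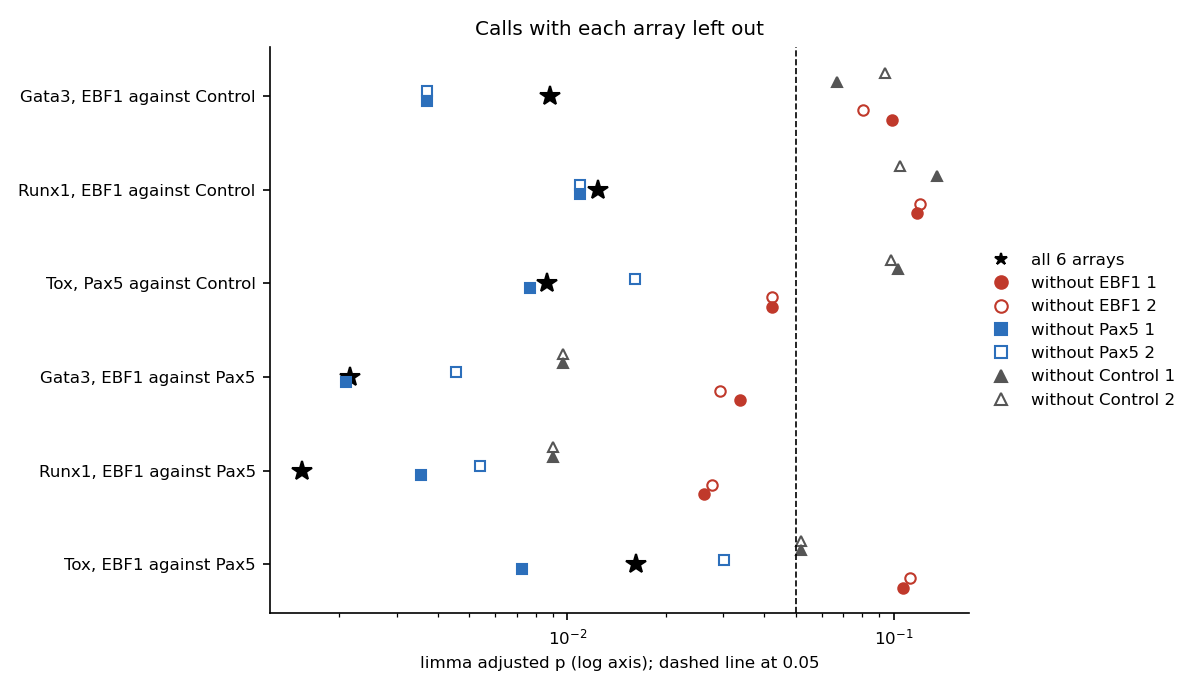
Adjusted p from limma (log axis) of the 6 calls among the factors with all 6 arrays (star) and with each array left out, the dashed line marking 0.05. Gata3 and Runx1 for EBF1 against Pax5 stay left of the line throughout, and each of the other 4 calls crosses it when some arrays are left out.

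Runx3, the runt-domain factor of cytotoxic T and natural killer cells and a paralog of Runx1, was not called. It read 8.59 and 8.46 in EBF1 cells and 8.35 and 8.40 in Pax5 cells, against 8.50 and 8.53 in Control cells. The EBF1 and Control arrays overlapped, and both Pax5 arrays lay below all others. Its log2 difference was 0.01 for EBF1 against Control (-0.19 to 0.21, adjusted p = 0.975), -0.14 for Pax5 against Control (-0.34 to 0.06, adjusted p = 0.383) and 0.15 for EBF1 against Pax5 (-0.05 to 0.35, adjusted p = 0.285).

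Tcf7 and Lef1 are the HMG-box factors that carry Wnt and Notch-dependent steps of T-cell development, and Tcf7 also marks early innate lymphoid precursors. Tcf7 read 4.08 and 4.10 in EBF1 cells and 3.87 and 3.83 in Pax5 cells, against 3.79 and 3.73 in Control cells. The 3 groups did not overlap, but all 6 values lay below the array medians (4.06 to 4.17). The log2 difference of Tcf7 was 0.33 for EBF1 against Control (SE 0.0736, 0.16 to 0.51, adjusted p = 0.0582), 0.09 for Pax5 against Control (-0.08 to 0.27, adjusted p = 0.507) and 0.24 for EBF1 against Pax5 (0.06 to 0.42, adjusted p = 0.0842). None of the 3 passed, and the EBF1 against Control difference had an adjusted p of 0.0412 when either Pax5 array was left out.

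Lef1 read 3.62 and 3.53 in EBF1 cells and 3.62 and 3.52 in Pax5 cells, against 3.52 and 3.43 in Control cells. Its values spanned a narrow range, above the floor and below the array medians. The log2 difference was 0.10 for EBF1 against Control (-0.10 to 0.31, adjusted p = 0.598), 0.09 for Pax5 against Control (-0.12 to 0.29, adjusted p = 0.590) and 0.01 for EBF1 against Pax5 (-0.19 to 0.22, adjusted p = 0.938). With the authors' group means these were 0.10, 0.14 and -0.04 (adjusted p = 0.660, 0.462 and 0.838), so Lef1 was not called either way.

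Bcl11b, the zinc-finger factor of T-cell commitment, read 3.62 and 3.59 in EBF1 cells and 3.69 and 3.54 in Pax5 cells, against 3.58 and 3.52 in Control cells. Its log2 difference was 0.05 for EBF1 against Control (-0.15 to 0.26, adjusted p = 0.808), 0.07 for Pax5 against Control (-0.14 to 0.27, adjusted p = 0.678) and -0.02 for EBF1 against Pax5 (-0.22 to 0.19, adjusted p = 0.925). With the authors' group means these were 0.15, 0.12 and 0.03 (adjusted p = 0.575, 0.610 and 0.882). Bcl11b was thus also uncalled both ways.

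The remaining 3 factors belong to innate lymphoid development. Nfil3, a basic leucine-zipper factor at the start of that pathway, read 8.43 and 8.39 in EBF1 cells and 8.42 and 8.34 in Pax5 cells, against 8.26 and 8.31 in Control cells. Both transduced groups lay above Control cells, by 0.13 for EBF1 (-0.06 to 0.31, adjusted p = 0.447) and 0.10 for Pax5 (-0.09 to 0.28, adjusted p = 0.515), and neither passed. Zbtb16, the zinc-finger factor of innate-like T cells and innate lymphoid precursors, read 6.27 and 6.16 in EBF1 cells and 6.27 and 6.17 in Pax5 cells, against 6.37 and 6.43 in Control cells. Both differences from Control were -0.18 (-0.38 to 0.03 both times, adjusted p = 0.315 for EBF1 and 0.302 for Pax5) and did not pass. Between EBF1 and Pax5 cells the log2 difference was 0.03 for Nfil3 (adjusted p = 0.839) and -0.003 for Zbtb16 (adjusted p = 0.985). Rora, a nuclear receptor of type 2 innate lymphoid cells, read 2.94 and 2.80 in EBF1 cells and 2.95 and 2.89 in Pax5 cells, against 2.95 and 2.72 in Control cells. It lay above the floor on 0 of 6 arrays and was left out of the test.

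The genes whose pattern lay nearest to each called factor were found by the Euclidean distance between log2 values over the 6 arrays, each gene centred on its own mean, among 15286 other genes. Nearest to Gata3 were Gem (distance 0.301), a small GTP-binding protein, Lrrc23 (0.385) and Kit (0.411), the stem cell factor receptor. Kit read 7.13 and 7.21 in EBF1 cells and 8.21 and 8.42 in Pax5 cells, against 8.18 and 8.14 in Control cells. Nearest to Runx1 were Xrcc6 (0.116), a subunit of the Ku DNA-repair complex, the deubiquitinase gene Usp48 (0.121) and the mitochondrial iron carrier gene Slc25a37 (0.138). Nearest to Tox were Ctnnd2 (0.143), a catenin, Vegfa (0.149), the angiogenic growth factor, and Clnk (0.155), an adaptor of immune-cell signalling. Vegfa read 9.37 and 9.40 in EBF1 cells and 8.83 and 8.75 in Pax5 cells, against 9.60 and 9.55 in Control cells. These distances describe 6 arrays and carry no test.

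The 5 lists of genes around the factors were read from the same model, with 27 calls in 15 genes in all. Of these, 5 calls, named below, held with any array left out, and each other call ended without at least 1 array. Over all genes tested, 5.6% were called for EBF1 against Control, 4.22% for Pax5 against Control and 13.9% for EBF1 against Pax5. The counts of each list stand beside these shares and were not tested against them. Of 11 paralogs of the factors 9 were tested. For EBF1 against Control 1 was higher, for Pax5 against Control 0 were called, and for EBF1 against Pax5 1 was higher. The called paralog was Bcl11a, the B-lineage relative of Bcl11b. Bcl11a read 8.88 and 8.74 in EBF1 cells and 7.84 and 7.78 in Pax5 cells, against 7.49 and 7.38 in Control cells. Its log2 difference was 1.38 for EBF1 against Control (adjusted p = 0.00170) and 1.00 for EBF1 against Pax5 (adjusted p = 0.00195), and both calls held with any array left out. Tox4 and Runx2 were not called. The list's median difference was 0.07, 0.0003 and -0.02 in the 3 comparisons, against 0.009, -0.04 and 0.04 over all genes.

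All 13 partners and corepressors were tested, with 2 higher for EBF1 against Control, 0 called for Pax5 against Control and 3 higher for EBF1 against Pax5, at medians of 0.06, -0.12 and 0.17. Zfpm1 (FOG-1), which binds GATA factors, read 5.49 and 5.54 in EBF1 cells and 4.44 and 4.52 in Pax5 cells, against 4.80 and 4.70 in Control cells. Its log2 difference was 0.77 for EBF1 against Control (adjusted p = 0.00613) and 1.04 for EBF1 against Pax5 (adjusted p = 0.00132), and the second call held with any array left out. Zfpm1 was thus higher in EBF1 cells, where Gata3 was lower. Tle4, a Groucho corepressor, rose with EBF1 by 0.39 (adjusted p = 0.0357). Jup, a catenin that can bind Tcf7 and Lef1, differed by 0.62 between EBF1 and Pax5 cells (adjusted p = 0.0114), and Tcf12, an E protein, by 0.36 (adjusted p = 0.0275). Ctnnb1 and Ldb1 were not called.

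Among 12 upstream inputs, all tested, 2 were higher and 1 lower for EBF1 against Control, 0 and 2 for Pax5 against Control, and 3 and 1 for EBF1 against Pax5, at medians of -0.08, -0.15 and 0.09. Notch1, the receptor that starts the T-cell program, read 8.04 and 7.89 in EBF1 cells and 6.20 and 5.93 in Pax5 cells, against 7.06 and 7.02 in Control cells. Its log2 difference of 1.90 between EBF1 and Pax5 cells (adjusted p = 0.000639) held with any array left out. It rose with EBF1 by 0.93 (adjusted p = 0.0102), where Gata3 fell, and fell with Pax5 by 0.97 (adjusted p = 0.0102), where Gata3 was not called. Hes1, a Notch target, rose with EBF1 by 1.06 (adjusted p = 0.00449) and differed by 0.73 between EBF1 and Pax5 cells (adjusted p = 0.00807). Il7r, the IL-7 receptor chain, read 9.47 and 9.42 in EBF1 cells and 9.05 and 9.05 in Pax5 cells, against 9.82 and 9.85 in Control cells, and was called in all 3 comparisons. Myb, a progenitor factor, was lower in EBF1 than in Pax5 cells by 0.38 (log2 difference -0.38, adjusted p = 0.0262). Ikzf1 and Rbpj were not called.

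Of 18 genes of the T-cell receptor complex and T-lineage surface 16 were tested, and Lat alone was called, for EBF1 against Control and for EBF1 against Pax5. Lat, an adaptor below the T-cell receptor, read 7.24 and 7.38 in EBF1 cells and 6.55 and 6.39 in Pax5 cells, against 6.60 and 6.54 in Control cells. Its log2 difference was 0.74 for EBF1 against Control (adjusted p = 0.0109) and 0.84 for EBF1 against Pax5 (adjusted p = 0.00407), the second of which held with any array left out. Lck and Zap70, kinases of the same pathway, were not called, and the list's medians were 0.05, -0.04 and 0.07. Of 15 innate lymphoid and natural killer genes 12 were tested, with 0 higher and 3 lower for EBF1 against Control, 1 and 2 for Pax5 against Control, and 1 and 2 for EBF1 against Pax5. Il18r1, the IL-18 receptor chain, fell with EBF1 and with Pax5: it read 8.43 and 8.43 in EBF1 cells and 8.56 and 8.51 in Pax5 cells, against 9.20 and 9.21 in Control cells, with log2 differences of -0.78 (adjusted p = 0.00414) and -0.67 (adjusted p = 0.00750) from Control. Il2rb fell with EBF1 by 0.78 (adjusted p = 0.00692) and lay lower than in Pax5 cells (-0.65, adjusted p = 0.00688). Pdcd1, the inhibitory receptor PD-1, was lower than in Control cells in both transduced groups, at log2 differences of -0.93 in EBF1 cells (adjusted p = 0.0331) and -1.08 in Pax5 cells (adjusted p = 0.0243). Icos, a costimulatory receptor, read 4.0 and 3.80 in EBF1 cells and 4.77 and 4.76 in Pax5 cells, against 3.96 and 3.76 in Control cells, and rose with Pax5 by 0.91 (adjusted p = 0.0102). Id2, the inhibitor of E proteins needed for innate lymphoid cells, differed by 0.44 between EBF1 and Pax5 cells (adjusted p = 0.0278). Klrd1 and Itgae were not called, and the medians were 0.002, -0.01 and -0.03.

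**Figure D5:**
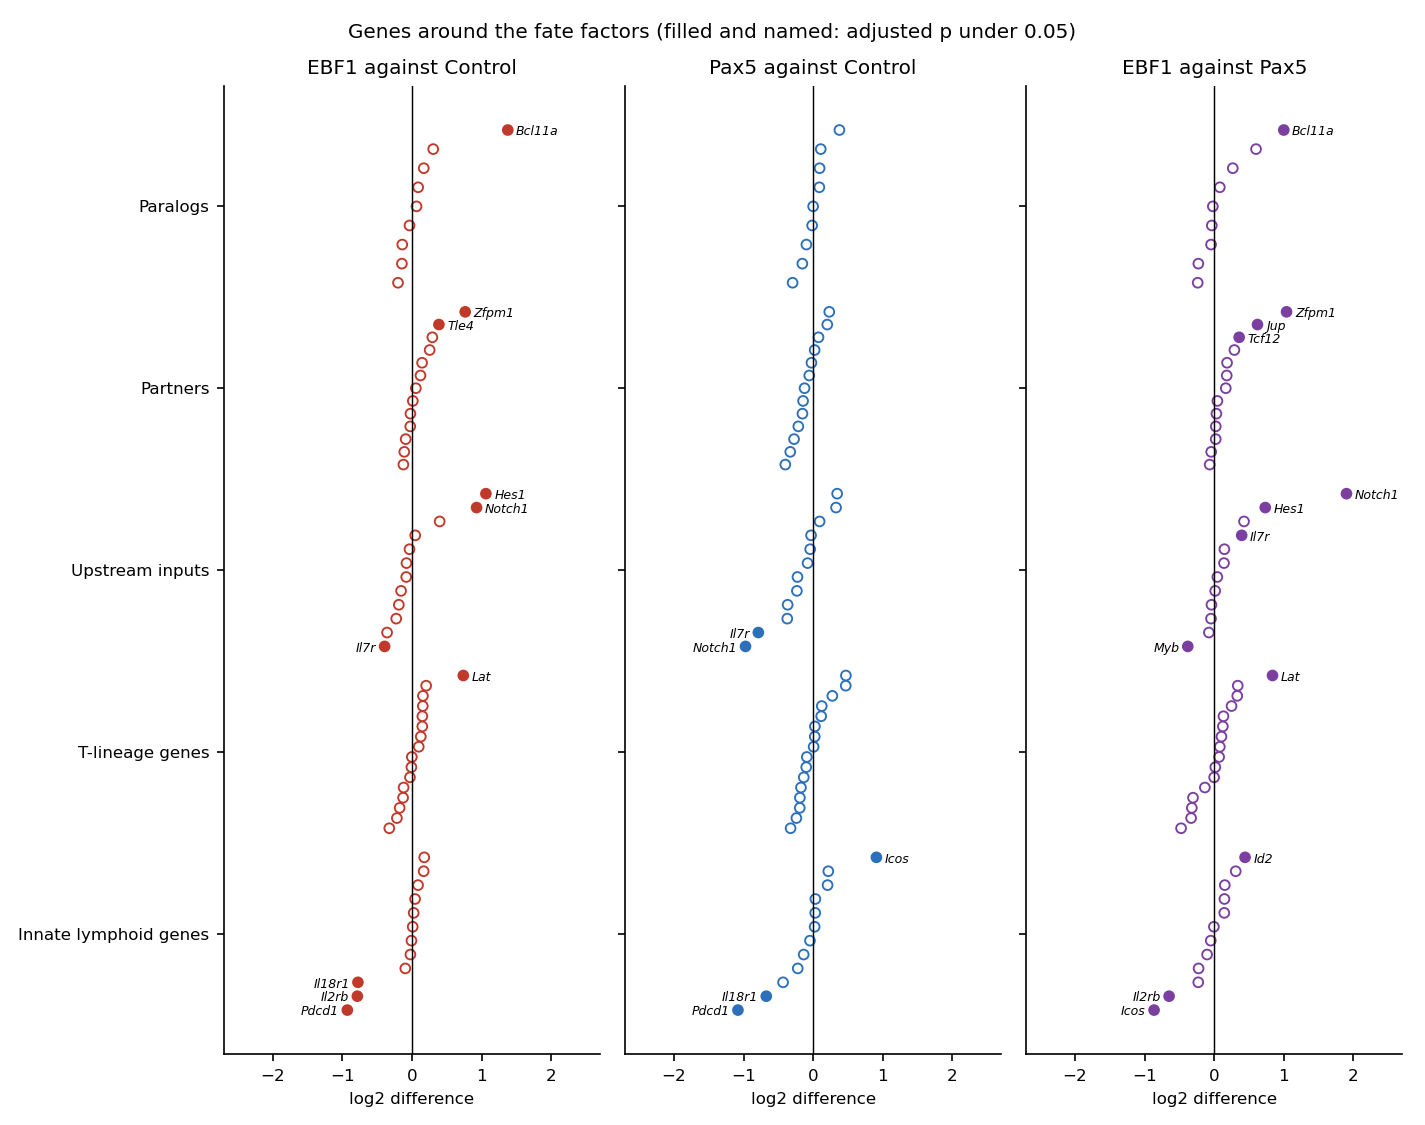
Log2 difference of each tested gene of the 5 lists in the 3 comparisons, with called genes filled and named. Bcl11a, Zfpm1, Notch1, Hes1 and Lat lie to the right for EBF1, and Il18r1 and Pdcd1 lie to the left in both comparisons with Control.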

How the data were processed

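Total RNA (50 ng a sample) went through NuGEN whole-transcriptome amplification and biotin labelling, per the labels' protocols, and the submitters' processing notes name RMA and Partek 6.5. The authors deposited log2 RMA values for 28350 probe sets, with a table of their own linear fold ratios, p-values, step-up p-values and an F score per probe set. No source used here gives the build of the probe annotation. Of the probe sets, 22969 have 1 symbol, 2285 several and 3096 none, and 22138 of the first were matched to RefSeq (GRCm38.p6) by gene ID, for names.

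From the log2 values, the probe set with the highest mean was kept per gene, and genes above their array's 30th percentile on at least 2 arrays (15295) were fitted with limma 3.58.1 in R 4.3.3. The model had 1 mean for each of the 3 groups and 3 contrasts, with 3 residual and 3.18 prior degrees of freedom, two-sided tests, Benjamini-Hochberg adjustment over all genes tested, and calls at an adjusted p of 0.05. RMA values carry no detection call, and 2 arrays a group limit the precision.

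The factors and lists were chosen with earlier results of these data known. Named are the 10 factors, every called gene and the 2 uncalled genes of highest mean in each list, the 3 genes nearest each called factor, and the vector genes; 1 gene of the paralog list is not reported here. The authors' group means differ from the array values for 4 probe sets, Bcl11b and Lef1 among them. Replicate numbers were not used to pair the arrays and were no term of the main model. Alternatives covered the filter, the choice of probe set, scaling, variance settings, a replicate block, each array left out and, added after seeing the data, array values matching the authors' group means.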

Additional observations from a re-analysis of the deposited data

How the results depend on the processing

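Of 450 alternative values of the 9 tested factors, 402 kept direction and status, 20 lost the call, 11 gained one and 17 changed sign. The listed genes had 631, 116, 11 and 7, in that order. An uncalled difference that stayed uncalled counts as kept, and only differences called in the main fit could lose a call. Leaving out an array of the group not compared gave the same fit as the 4 arrays compared, so some alternatives repeat each other. The number of factors called for EBF1 against Control was 2, with 3 with eBayes trend and robust settings (Tox gained, adjusted p = 0.0166), 4 using only the 4 arrays compared, 0 by the authors' deposited step-up p and 0 to 4 with an array left out. For Pax5 against Control it was 1, with 2 under the 50th percentile filter, 2 with eBayes trend and robust settings (Runx1 gained both times, adjusted p = 0.0327 and 0.00327), 0 by the authors' step-up p and 0 to 3 with an array left out. For EBF1 against Pax5 it was 3, with 1 by the authors' step-up p and 2 to 3 with an array left out. Over all genes, the 857 calls for EBF1 against Control became 1324 (50th percentile), 558 (every probe set), 1786 (trend and robust), 1424 (4 arrays), 5 (authors) and 103 to 1424 (an array left out). The 646 for Pax5 against Control became 1000 (50th percentile), 1643 (trend and robust), 240 (4 arrays), 16 (authors) and 60 to 2407 (an array left out). The 2128 for EBF1 against Pax5 became 3369, 1093 and 378 under the trend and robust settings, the 4 arrays and the authors' step-up p, and 410 to 3884 with an array left out. With a replicate block the counts were 565, 412 and 1741 and no call of the factors changed, while 6 calls of listed genes ended (Pdcd1, Il7r and Tle4 for EBF1 against Control, Pdcd1 for Pax5 against Control, and Myb and Tcf12 for EBF1 against Pax5, adjusted p from 0.0503 to 0.0735). Deviations of arrays with the same number correlated at 0.009, 0.007 and -0.012 over genes, so they showed no common shift. Whether such arrays share a transduction or culture was not tested. The sign changes were all in uncalled differences. For EBF1 against Control, quantile normalization gave -0.025 for Runx3 and -0.017 for Id2, and leaving arrays out gave -0.058 to 0.075 for Runx3, -0.045 to 0.067 for Id2, -0.056 to 0.15 for Icos and -0.079 to 0.0087 for Myb. For Pax5 against Control it gave -0.0044 to 0.14 for Bcl11b. For EBF1 against Pax5 it gave -0.037 to 0.063 for Lef1, -0.089 to 0.057 for Bcl11b, -0.057 to 0.051 for Zbtb16, -0.014 to 0.072 for Nfil3 and -0.063 to 0.37 for Pdcd1. Quantile normalization gave 0.0065 for Bcl11b and -0.036 for Nfil3, median centring -0.0027 for Lef1, and the authors' means, by the deposited table or the matching array values, -0.037 for Lef1 and 0.034 for Bcl11b. Beyond fewer arrays or genes in a fit, and the unequal group means for Lef1 and Bcl11b, the cause was not tested. With 2 arrays a group, the difference of Tcf7 for EBF1 against Control (0.33) fell on either side of the threshold by setting. Low values (Rora below the floor, Lef1 and Bcl11b between it and the array medians) have little room to fall.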
